A study of Homo sapiens with 8 samples.

Results

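The splicing factor genes described here belong to 5 families, the SR proteins (SRSF), the heterogeneous nuclear ribonucleoproteins (hnRNP, symbols HNRNP), the SF3A and SF3B subunits of the U2 particle (SF3), the pre-mRNA processing factors (PRPF) and the U2 auxiliary factors (U2AF). They were chosen by symbol, from probe sets annotated to a single gene, with the probe set of the highest mean kept for each gene. The choice gave 55 of 18417 genes tested, namely 12 SRSF, 20 HNRNP, 9 SF3, 11 PRPF and 3 U2AF genes. The comparison asked how their mRNA levels differ in U2OS cells, a human osteosarcoma line, after siRNA against CDK9, the kinase of the elongation factor P-TEFb. The CDK9 siRNA group had 4 arrays and the control group, given a non-targeting siRNA, had 4 arrays. Both siRNAs were used at 10 nM, and total RNA was taken 72 h later from 1 cell line in biological replicates.

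The spliceosome removes introns in steps that these families carry out or steer. U2AF reads the end of the intron and helps the U2 particle, with its SF3A and SF3B complexes, to settle on the branch point. Many PRPF proteins belong to the U4/U6.U5 particle or to the complex that activates it, while SR proteins mostly promote and hnRNP proteins often repress the use of nearby splice sites. Much splicing takes place while RNA polymerase II, a target of CDK9, is still transcribing. The arrays combine the probes of a gene into a single value, so the values are mRNA levels and give neither isoforms, protein nor protein phosphorylation.

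CDK9 mRNA itself fell to 28.4% of the control level (95% confidence interval 26.4 to 30.5%). Its log2 signals were 8.0, 9.03, 9.09 and 9.04 in CDK9 siRNA replicates 1 to 4, against 9.80, 10.86, 10.89 and 10.86 in control siRNA replicates 1 to 4. Every CDK9 siRNA array was lower than all 4 controls. Replicate 1 of both groups had medians of 5.85 (CDK9 siRNA) and 5.8 (control siRNA) on the log2 scale, while the other 6 arrays had medians between 6.99 and 7.04. The lower scale of replicate 1 was known from earlier results of these data. A gap in the numbers of the sample descriptions also set replicate 1 of both groups apart. Replicate 1 of both groups was therefore treated as array set 1 and replicates 2 to 4 as array set 2. The set was a block in limma's fit. Of 8 markers of the mesenchymal and osteoblast lineage, 7 lay above the lowest 30% of all genes by mean signal, and genes in that lowest 30% are called dim below. All 3 measured blood markers and all 3 endothelial markers were dim. Of 5 epithelial markers EPCAM and CDH1 were dim, while the other 3, all keratin genes, lay above that lowest 30%. Of the lineage markers 5 of 8 fell, where 14.2% of all genes were called, among them RUNX2 (-0.60), and of the epithelial markers EPCAM rose (0.32). Blocked by replicate number 4 lineage markers fell, and VIM and EPCAM missed the threshold (limma, adjusted p = 0.0808 and 0.0841). The part of these shifts in the splicing factor values was not tested.

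None of the 55 splicing factor genes passed the test after CDK9 silencing. With limma and Benjamini-Hochberg adjustment over all genes, 0 rose and 0 fell at an adjusted p under 0.05, where 14.2% of all genes were called, 6.73% as higher and 7.47% as lower genes. Before adjustment, 6 members had a p under 0.05, all of them lower, which is 10.9% of the 55, against 28% of all genes. These were U2AF1L4, PRPF6, SRSF6, PRPF38B, PRPF4 and HNRNPA0. The log2 differences (CDK9 siRNA minus control siRNA) of the 55 genes lay between -0.20 and 0.15, with an SD over genes of 0.0723. Over all genes that SD was 0.185.

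**Figure D1:**
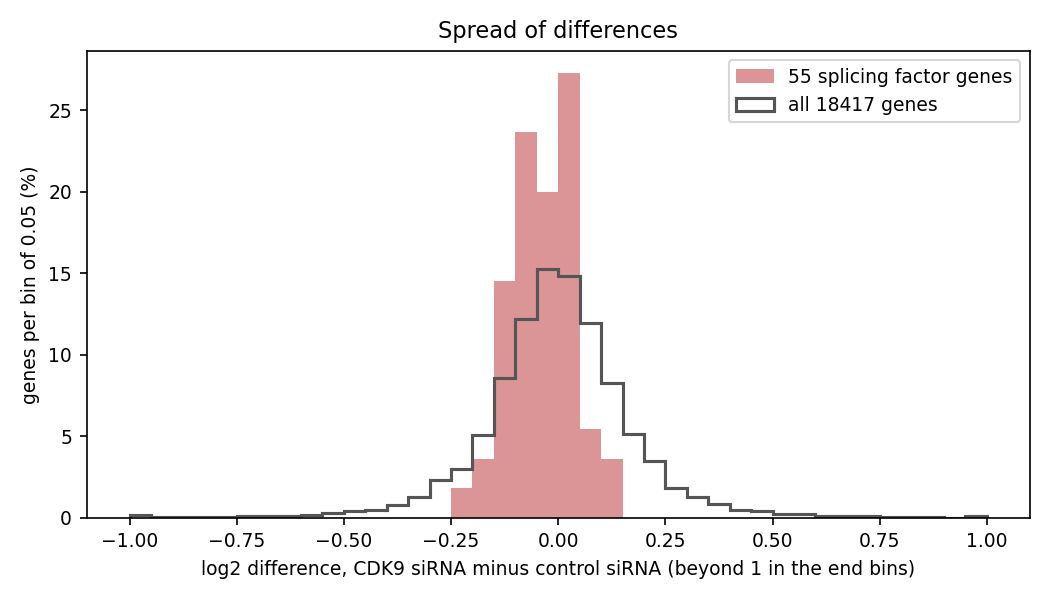
Log2 difference between CDK9 siRNA and control siRNA on the horizontal axis against the share of genes per bin in percent, for the 55 splicing factor genes (filled) and all 18417 genes (line). The splicing factor genes lie between -0.20 and 0.15, inside the wider spread of all genes.

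The fit limited, for each gene taken alone, how large a change in the deposited values could have been missed. Its intervals were not widened for 55 genes and took the difference to be the same in both array sets. Array medians lay close together within each array set, so a shift shared by most genes may not appear in these values. Such a shift was not tested. For 45 of the 55 genes the whole 95% confidence interval lay within a 1.2-fold change in either direction, which held for 53.3% of all genes. The count was 52 within 1.25-fold and 55 within 1.5-fold, against 71.1% and 95.9% of all genes. The 3 genes whose interval reached past 1.25-fold were U2AF1L4, HNRNPA1 and the dim gene HNRNPCL1. The standard errors of the 55 differences ran from 0.04 to 0.13 on the log2 scale, with a median of 0.05. The median difference was -0.03 over the 55 genes and 0.00 over all genes, and 35 of the 55 differences were below 0. In all, 52 of the 55 genes lay above the dim limit, and SRSF12, HNRNPCL1 and HNRNPCL2 were dim.

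**Figure D2:**
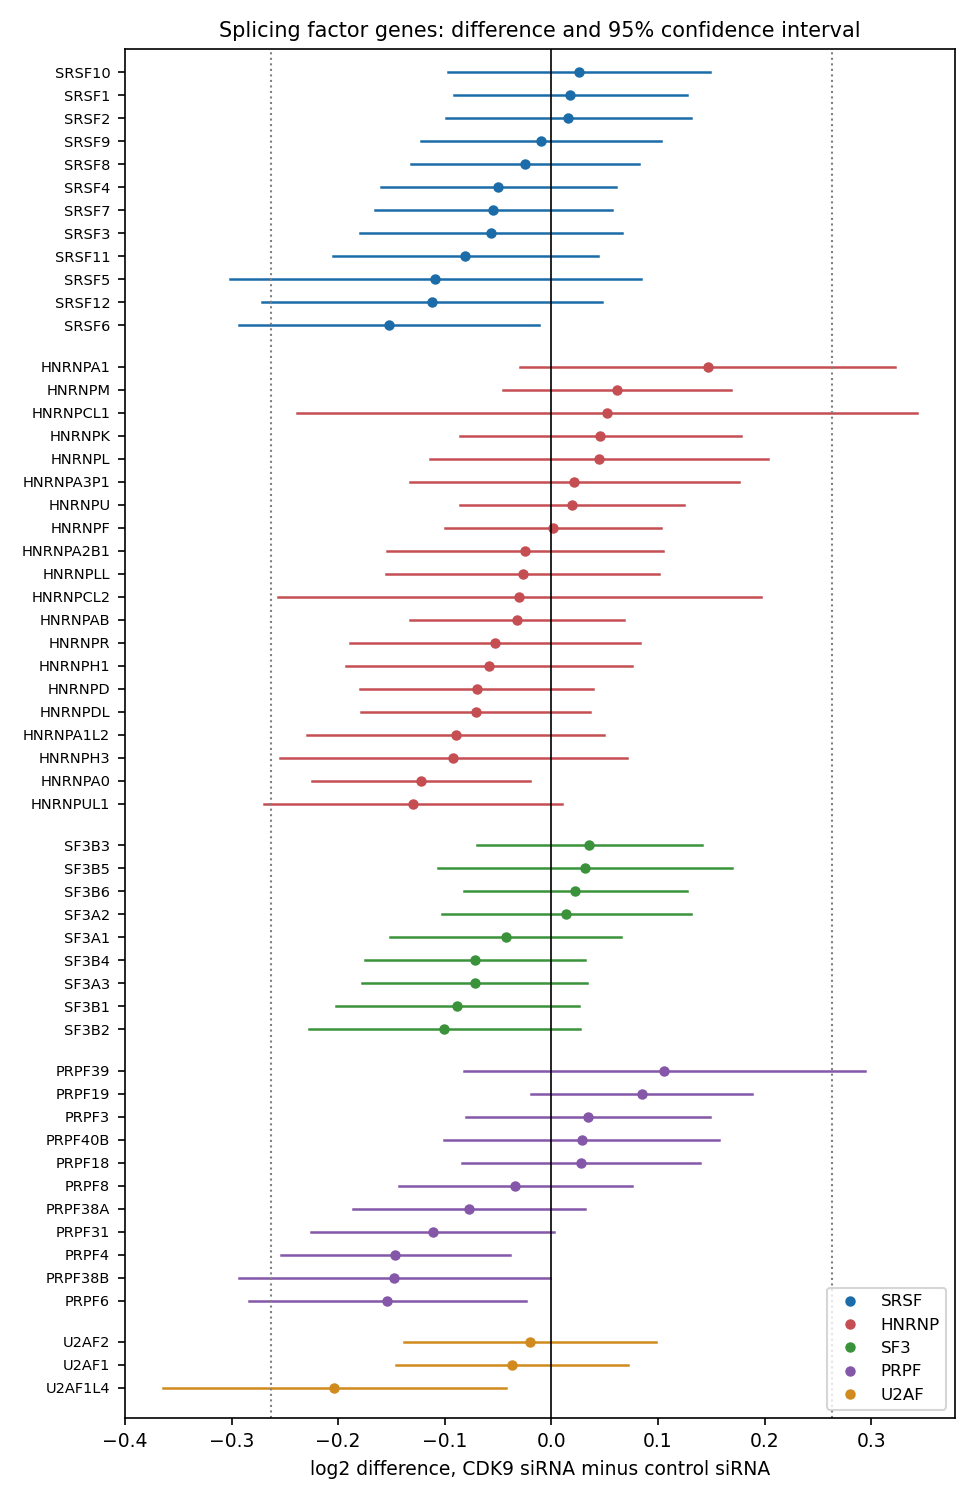
Log2 difference (CDK9 siRNA minus control siRNA, n = 4 per group) of each of the 55 genes, by family from top to bottom, with points for the fitted difference and bars for the 95% confidence interval. The dotted lines mark a 1.2-fold change in either direction, and 45 of the 55 intervals lie between them.

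SR proteins carry RNA recognition motifs and a tail rich in arginine and serine, and bind enhancer sequences in exons. Of the 12 SRSF genes 0 rose and 0 fell, with differences from -0.15 to 0.03 and a median of -0.05. SRSF1, the founding member of the family, had log2 signals of 11.71, 12.39, 12.31 and 12.39 in CDK9 siRNA replicates 1 to 4, against 11.65, 12.32, 12.36 and 12.39 in control siRNA replicates 1 to 4. The groups overlapped on these arrays, and the difference was 0.02 ± 0.05 (SE, n = 4 per group, adjusted p = 0.861), with a 95% confidence interval of -0.09 to 0.13. SRSF2, which binds exonic enhancers and is recurrently mutated in myeloid neoplasms, read 10.28, 10.55, 10.51 and 10.57 in CDK9 siRNA replicates 1 to 4, against 10.38, 10.45, 10.49 and 10.53 in control siRNA replicates 1 to 4. Its difference was 0.02 ± 0.05 (SE, adjusted p = 0.882), within 1.2-fold at both ends of its interval (-0.10 to 0.13).

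SRSF3, the smallest SR protein and also an adaptor for mRNA export, read 10.89, 11.31, 11.25 and 11.28 in CDK9 siRNA replicates 1 to 4, against 11.11, 11.28, 11.31 and 11.27 in control siRNA replicates 1 to 4. Only the array set 1 pair stood apart, at -0.21, while array set 2 gave 0.00, and the joint difference was -0.06 ± 0.05 (SE, adjusted p = 0.561). SRSF6, an SR protein that regulates alternative exons, had the lowest value of the family. Its signals were 9.22, 10.78, 10.75 and 10.81 in CDK9 siRNA replicates 1 to 4, against 9.59, 10.83, 10.84 and 10.91 in control siRNA replicates 1 to 4. Every CDK9 siRNA array lay below the controls of its array set, by -0.37 in set 1 and -0.08 in set 2. The joint difference of -0.15 ± 0.06 (SE, n = 4 per group) did not pass (adjusted p = 0.146), although it did so narrowly with an intensity trend and robust prior (adjusted p = 0.0491).

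The other 8 SRSF genes had differences between -0.11 and 0.03. SRSF10, which acts as a repressor of splicing when dephosphorylated, had the highest value of the family at 0.03 ± 0.05 (SE, adjusted p = 0.812), and its second probe set gave -0.02 ± 0.05 (SE). It was the one member with more than 1 probe set of its own. SRSF5 had a difference of -0.11 and the widest interval among the SRSF genes (-0.30 to 0.08), and its array set 1 pair gave -0.41, against -0.01 in set 2. SRSF4, SRSF7, SRSF8, SRSF9 and SRSF11 had differences of -0.05, -0.05, -0.02, -0.01 and -0.08. SRSF12 (dim) had -0.11, where set 1 gave 0.12 and set 2 gave -0.19.

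**Figure D3:**
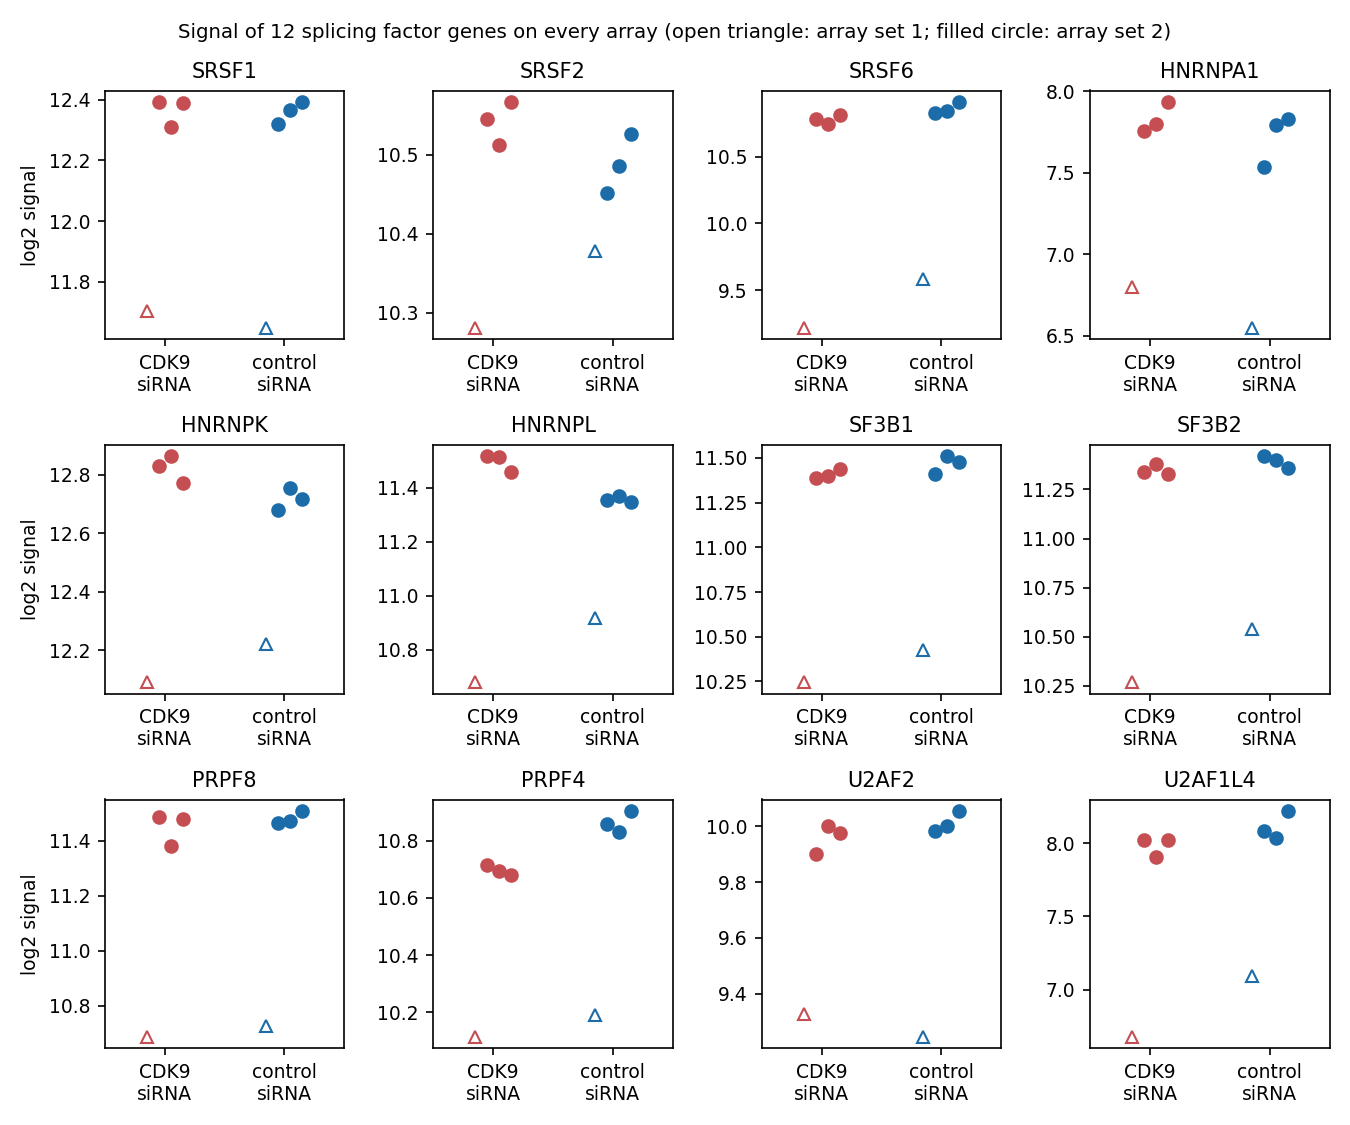
Log2 signal on each of the 8 arrays for 12 of the splicing factor genes, with CDK9 siRNA left of control siRNA, open triangles for array set 1 (replicate 1) and filled circles for array set 2 (replicates 2 to 4); each panel has its own axis. Array set 1 lies lower in every panel for both groups, and within array set 2 the groups stand apart for SRSF6, HNRNPK, HNRNPL, PRPF4 and U2AF1L4 among these 12 genes.

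hnRNP proteins coat nascent transcripts and act in splicing, mRNA export and stability. Of the 20 HNRNP genes 0 rose and 0 fell, with differences from -0.13 to 0.15 and a median of -0.03. HNRNPA1, which antagonises SR proteins at many splice sites, had the highest value of all 55 genes. Its signals were 6.80, 7.76, 7.80 and 7.94 in CDK9 siRNA replicates 1 to 4, against 6.55, 7.53, 7.79 and 7.83 in control siRNA replicates 1 to 4. The CDK9 siRNA array was above the control of the same number in 4 of 4 pairs, but in array set 2 the groups overlapped, and the difference of 0.15 ± 0.08 (SE, n = 4 per group) did not pass (adjusted p = 0.264). HNRNPA1 has many processed copies in the genome, so its probe set is uncertain, and the same holds for HNRNPA1L2 (-0.09) and HNRNPA3P1 (0.02), which are themselves copies of hnRNP genes.

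HNRNPK, a poly-C binding protein that acts in transcription, splicing and translation, read 12.09, 12.83, 12.86 and 12.77 in CDK9 siRNA replicates 1 to 4, against 12.22, 12.68, 12.76 and 12.72 in control siRNA replicates 1 to 4. All 3 CDK9 siRNA arrays of set 2 were above the controls, by 0.10, while the pair of set 1 gave -0.13, and the joint difference was 0.05 ± 0.06 (SE, adjusted p = 0.675). HNRNPL, which binds CA repeats, followed the same pattern. It read 10.68, 11.52, 11.51 and 11.46 in CDK9 siRNA replicates 1 to 4, against 10.92, 11.36, 11.37 and 11.35 in control siRNA replicates 1 to 4, with 0.14 in set 2 and -0.24 in set 1. The joint difference was 0.04 ± 0.07 (SE, adjusted p = 0.743).

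HNRNPUL1 had the lowest value of the family and read 9.92, 10.82, 10.90 and 10.90 in CDK9 siRNA replicates 1 to 4, against 10.26, 10.93, 10.93 and 10.92 in control siRNA replicates 1 to 4. Its joint difference of -0.13 ± 0.06 (SE, adjusted p = 0.213) came mostly from array set 1, at -0.35 against -0.06 in set 2. HNRNPA0, a binder of AU-rich elements, had the smallest adjusted p of the family (0.113). It read 9.34, 10.55, 10.55 and 10.52 in CDK9 siRNA replicates 1 to 4, against 9.47, 10.63, 10.65 and 10.69 in control siRNA replicates 1 to 4. All CDK9 siRNA arrays lay below the controls of their array set, and the 2 sets gave alike values, -0.13 and -0.12, with a joint difference of -0.12 ± 0.05 (SE, n = 4 per group).

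Unlike that of HNRNPA1, the intervals of HNRNPA2B1, HNRNPU and HNRNPF stayed within 1.2-fold. HNRNPA2B1 had -0.02 (interval -0.15 to 0.10), HNRNPU, the nuclear scaffold attachment factor, 0.02 (-0.09 to 0.12), and HNRNPF, a binder of G-rich sequence, 0.00 (-0.10 to 0.10). HNRNPD and HNRNPDL, paralogs whose start sites lie near each other on chromosome 4, had -0.07 and -0.07. HNRNPM, HNRNPH1, HNRNPH3, HNRNPR, HNRNPAB and HNRNPLL had 0.06, -0.06, -0.09, -0.05, -0.03 and -0.03. The dim genes HNRNPCL1 and HNRNPCL2, intronless relatives of HNRNPC, had 0.05 and -0.03. A further 12 probe sets named an HNRNP symbol beside other symbols and entered no gene value. In a fit over all 33297 probe sets 0 of these 12 rose and 0 fell (smallest adjusted p = 0.264), and their differences ran from -0.08 to 0.12. HNRNPC, HNRNPA3, HNRNPH2 and HNRNPUL2 were named only on such shared probe sets and are not among the 55 genes.

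U2AF reads the polypyrimidine tract and the AG at the end of the intron. Its large subunit, U2AF2, had log2 signals of 9.33, 9.90, 10.00 and 9.97 in CDK9 siRNA replicates 1 to 4, against 9.24, 9.98, 10.00 and 10.06 in control siRNA replicates 1 to 4. The groups overlapped in array set 2, and the difference was -0.02 ± 0.05 (SE, n = 4 per group, adjusted p = 0.853). U2AF1, the small subunit that contacts the AG, read 9.64, 10.83, 10.83 and 10.84 in CDK9 siRNA replicates 1 to 4, against 9.78, 10.83, 10.82 and 10.86 in control siRNA replicates 1 to 4. Its difference was -0.04 ± 0.05 (SE, adjusted p = 0.681), and its interval and that of U2AF2 stayed within 1.2-fold.

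U2AF1L4, a paralog of the small subunit, had the lowest difference of all 55 genes. It read 6.68, 8.02, 7.90 and 8.02 in CDK9 siRNA replicates 1 to 4, against 7.10, 8.08, 8.04 and 8.22 in control siRNA replicates 1 to 4. Each CDK9 siRNA array lay below the controls of its array set, by -0.42 in set 1 and -0.13 in set 2. The joint difference of -0.20 ± 0.07 (SE, n = 4 per group) amounts to 86.8% of the control level (95% confidence interval 77.7 to 97.1%) and did not pass (adjusted p = 0.0944).

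SF3A and SF3B are protein complexes of the U2 particle, and SF3B holds the branch point adenosine. All 9 SF3 genes had intervals within 1.2-fold, and their differences ran from -0.10 to 0.04, the narrowest range of the 4 families with more than 3 genes. SF3B1, the largest SF3B subunit and the target of several splicing inhibitors, read 10.25, 11.39, 11.40 and 11.44 in CDK9 siRNA replicates 1 to 4, against 10.42, 11.41, 11.51 and 11.48 in control siRNA replicates 1 to 4. It was lower in 4 of 4 same-numbered pairs, but the groups overlapped in array set 2 and the difference of -0.09 ± 0.05 (SE, n = 4 per group) did not pass (adjusted p = 0.303). SF3B2 had the lowest value of the family at -0.10 ± 0.06 (SE, adjusted p = 0.291). It read 10.27, 11.34, 11.38 and 11.33 in CDK9 siRNA replicates 1 to 4, against 10.54, 11.42, 11.40 and 11.36 in control siRNA replicates 1 to 4, so that most of the difference lay in array set 1.

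SF3B3 had the highest value of the family and read 11.00, 11.62, 11.62 and 11.64 in CDK9 siRNA replicates 1 to 4, against 10.89, 11.61, 11.59 and 11.64 in control siRNA replicates 1 to 4. It was higher in 4 of 4 pairs, by amounts that left the joint difference at 0.04 ± 0.05 (SE, adjusted p = 0.683). SF3B4, SF3B5 and SF3B6, the last of which touches the branch point, had -0.07, 0.03 and 0.02. The SF3A subunits SF3A1, SF3A2 and SF3A3 had -0.04, 0.01 and -0.07.

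The promoters of the members were also searched for motifs that played no part in their choice. RefSeq promoter windows (GRCh38.p14, 250 bases before to 50 after the gene start) were at hand for 49 of the 55 genes, and 6 of the 8 SF3 windows held CCGGAAG, a core motif of ETS transcription factors, on either strand. The SF3B1 and SF3B5 windows held none, and the SF3B3 promoter was not analysed here. The motif was present in 2 of 11 SRSF, 3 of 18 HNRNP, 2 of 9 PRPF and 1 of 3 U2AF windows. Over the 49 windows the share was 28.6%, against 14.6% of the 14239 windows whose gene was tested and 10.7% of all 27305 windows. The SF3 count of this motif was singled out after the counts of every family and motif were seen. The windows with more than 1 match among the SF3 genes are shown, chosen after the matches were seen, with the motif or its reverse complement CTTCCGG in capitals.
SF3B6 promoter (chr2:24076277-24076576, minus strand): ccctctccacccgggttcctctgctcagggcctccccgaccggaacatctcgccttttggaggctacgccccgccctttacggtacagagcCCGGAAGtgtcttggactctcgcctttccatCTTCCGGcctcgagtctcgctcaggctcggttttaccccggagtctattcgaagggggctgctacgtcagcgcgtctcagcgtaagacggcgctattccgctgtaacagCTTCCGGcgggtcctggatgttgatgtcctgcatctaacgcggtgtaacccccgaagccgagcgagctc
SF3A3 promoter (chr1:37989973-37990272, minus strand): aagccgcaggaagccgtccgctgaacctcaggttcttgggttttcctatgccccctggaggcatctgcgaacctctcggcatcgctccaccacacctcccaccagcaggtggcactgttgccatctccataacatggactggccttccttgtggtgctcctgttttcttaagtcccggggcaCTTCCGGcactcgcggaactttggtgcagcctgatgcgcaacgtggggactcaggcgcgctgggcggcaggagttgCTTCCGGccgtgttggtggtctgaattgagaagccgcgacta
SF3B2 promoter (chr11:66052114-66052413, plus strand): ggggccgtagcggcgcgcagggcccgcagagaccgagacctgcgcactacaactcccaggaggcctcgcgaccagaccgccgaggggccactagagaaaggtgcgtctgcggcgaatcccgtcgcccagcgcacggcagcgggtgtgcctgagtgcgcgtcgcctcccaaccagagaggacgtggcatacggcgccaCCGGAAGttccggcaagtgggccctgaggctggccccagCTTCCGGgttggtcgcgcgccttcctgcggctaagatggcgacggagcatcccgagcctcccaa

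The first base of the matches lay at -159, -128 and -19 from the start in SF3B6, at -68 and 9 in SF3A3, and at -53 and -14 in SF3B2. The single matches of SF3A1, SF3A2 and SF3B4 lay at -49, -9 and -26. These letter matches were not tested for binding. Of the other motifs searched on both strands, whose matches may overlap one another, GGGCGG (the GC box) was in 59.2% of the members' windows and 60.0% of those of tested genes. CCAAT was in 40.8% and 36.3%, TATAAA in 8.16% and 9.0%, CACGTG (the E-box) in 12.2% and 8.88%, and TGACGTCA (the cAMP response element) in 0% and 2.65%. The median GC content was 63.0% in both. By family, GGGCGG was in 6 of 8 SF3, 5 of 11 SRSF, 12 of 18 HNRNP, 4 of 9 PRPF and 2 of 3 U2AF windows. In the same order CCAAT was in 1 of 8, 2 of 11, 11 of 18, 6 of 9 and 0 of 3.

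PRPF proteins include the core of the catalytic spliceosome. PRPF8, the U5 protein that frames the active site, read 10.69, 11.49, 11.38 and 11.48 in CDK9 siRNA replicates 1 to 4, against 10.73, 11.46, 11.47 and 11.51 in control siRNA replicates 1 to 4. Its difference was -0.03 ± 0.05 (SE, n = 4 per group, adjusted p = 0.712), with like values in both array sets (-0.04 and -0.03). PRPF19, a ubiquitin ligase of the complex that activates the spliceosome, read 9.84, 10.67, 10.75 and 10.73 in CDK9 siRNA replicates 1 to 4, against 9.74, 10.65, 10.62 and 10.64 in control siRNA replicates 1 to 4. It was higher in 4 of 4 pairs, by 0.08 ± 0.05 (SE, adjusted p = 0.273), which is 106% of the control level.

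PRPF4, a WD40 protein of the U4/U6 particle, came nearest to the threshold of all 55 genes and was given in full for that reason. It read 10.11, 10.71, 10.69 and 10.68 in CDK9 siRNA replicates 1 to 4, against 10.19, 10.86, 10.83 and 10.90 in control siRNA replicates 1 to 4. All CDK9 siRNA arrays lay below the controls of their set, by -0.08 in set 1 and -0.17 in set 2. The joint difference of -0.15 ± 0.05 (SE, n = 4 per group) corresponds to 90.4% of the control level (95% confidence interval 83.9 to 97.3%) and missed the threshold (adjusted p = 0.0752). It passed in array set 2 alone (adjusted p = 0.0402, where 18.1% of all genes were called) and when dim genes were left out before the fit (adjusted p = 0.0373, 23.8% called).

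PRPF6, a scaffold of the tri-snRNP, had the lowest value of the family. It read 8.45, 9.55, 9.62 and 9.71 in CDK9 siRNA replicates 1 to 4, against 8.74, 9.74, 9.73 and 9.72 in control siRNA replicates 1 to 4. Each CDK9 siRNA array was below the controls of its set, and the difference of -0.15 ± 0.06 (SE, adjusted p = 0.115) was made up of -0.29 in set 1 and -0.11 in set 2. PRPF39, a U1-associated protein, had the highest value, 0.11 ± 0.08 (SE, adjusted p = 0.469). It read 7.37, 8.92, 8.79 and 8.97 in CDK9 siRNA replicates 1 to 4, against 7.56, 8.58, 8.74 and 8.74 in control siRNA replicates 1 to 4, lower than its control in set 1 and higher than all controls in set 2.

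Of the remaining PRPF genes, PRPF31 and PRPF3, tri-snRNP proteins linked to inherited retinal degeneration, had -0.11 and 0.03. PRPF38A, PRPF38B, PRPF18 and PRPF40B had -0.08, -0.15, 0.03 and 0.03. Of the 11 PRPF genes 0 rose and 0 fell, and 3 of them (PRPF4, PRPF6 and PRPF38B) had an unadjusted p under 0.05, as did 28% of all genes.

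The 2 array sets were also described apart. In array set 1, the single pair, 40 of the 55 genes were lower and the median difference was -0.13. In array set 2, 32 were lower and the median was -0.01. Over all genes 49.4% and 51.6% were lower in the 2 sets, with medians of 0.00 and -0.01. Among the 1842 genes in the brightest 10% by mean signal, which include 32 of the 55, the medians were -0.07 in set 1 and 0.03 in set 2. In set 1 the median was -0.13 for these 32 members and -0.12 for the 23 outside the brightest 10%. In set 2 it was -0.01 and 0.00.

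By family, the set 1 medians were -0.13 for SRSF, -0.15 for HNRNP, -0.09 for SF3, -0.08 for PRPF and -0.13 for U2AF. The set 2 medians were -0.01, 0.00, -0.04, -0.03 and -0.05 in the same order. In a test of the difference between the sets, 0 of the 55 genes passed (limma, adjusted p under 0.05), against 2.14% of all genes. HNRNPL came nearest, with a set 1 minus set 2 difference of -0.38 ± 0.09 (SE, adjusted p = 0.0736), and it passed when dim genes were left out before the fit (adjusted p = 0.0284). Since array set 1 holds 1 array per group, the spread in that test comes from array set 2.

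**Figure D4:**
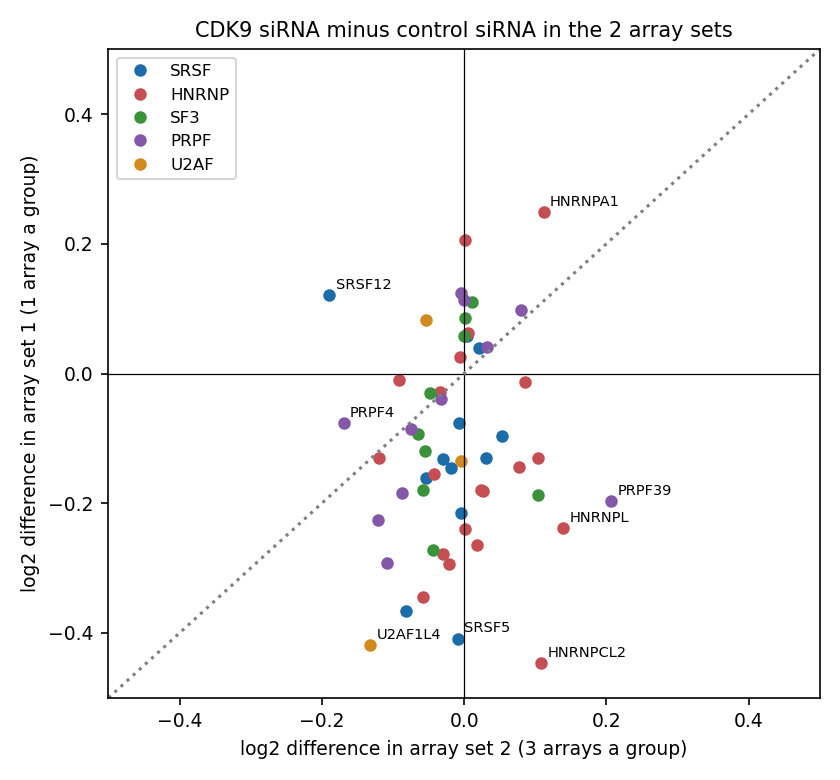
Log2 difference (CDK9 siRNA minus control siRNA) of each of the 55 genes in array set 2 (horizontal axis, 3 arrays per group) and array set 1 (vertical axis, 1 array per group), coloured by family, with a dotted line of equality. In array set 1 40 genes lie below 0, and in array set 2 32 do.

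Within array set 2 the groups did not overlap for 17 of the 55 genes. The CDK9 siRNA arrays were all lower for 10, where 19.5% of all genes were, and all higher for 7, where 18.7% were. These shares of 18.2% and 12.7% are near or below the background. The 7 higher genes were HNRNPK, HNRNPL, HNRNPM, PRPF19, PRPF39, SF3B5 and SRSF9, and of these only PRPF19 was also higher in set 1. Over the 4 same-numbered pairs, 14 of the 55 genes were lower in every pair, a larger share than the 17.6% of all genes. Only 3 of the 55 were higher in every pair, a smaller share than the 15.4% of all genes. Those 14 were SRSF6, SRSF11, HNRNPA0, HNRNPAB, HNRNPD, HNRNPDL, HNRNPUL1, SF3B1, SF3B2, SF3B4, PRPF4, PRPF6, PRPF38A and U2AF1L4.

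Blocked by replicate number the count was again 0, where 9.17% of all genes were called. With an intensity trend and robust prior, where 18.1% were called, 4 members fell, namely PRPF4 (adjusted p = 0.0123), HNRNPA0 (0.03), SRSF6 (0.0491) and PRPF6 (0.0498). No member rose under any of the alternatives.

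Other genes of the splicing machinery, in 10 lists of 151 genes that hold none of the 55, showed a few calls. Of 139 measured genes 2 rose and 11 fell, 9.35% in all, against 14.2% of all genes. The 15 SR-like proteins, 9 SR protein kinase and transport genes, 3 U1 proteins and 11 other tri-snRNP proteins had 0 calls in either direction. Their medians were -0.05, 0.05, -0.04 and 0.02. The lists with calls had 1 of 15 Sm and LSm genes lower, 1 of 15 other U2 and branch point genes higher, 3 of 27 PRPF19 complex, activation and helicase genes lower, 1 of 8 minor spliceosome genes lower, 1 of 28 other splicing regulators higher and 4 lower, and 2 of 8 exon junction and decay genes lower. The medians of these lists were 0.06, -0.05, -0.07, 0.01, -0.07 and -0.07 in that order.

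Among the regulators KHDRBS3, a STAR family RNA-binding protein, fell by the largest amount of these lists. It read 8.75, 9.47, 9.38 and 9.51 in CDK9 siRNA replicates 1 to 4, against 9.30, 10.00, 9.95 and 9.95 in control siRNA replicates 1 to 4. The CDK9 siRNA arrays were the lower ones in both array sets, and the difference was -0.53 ± 0.05 (SE, n = 4 per group, adjusted p = 0.000351). CELF1, which binds GU-rich elements, fell by nearly the same amount in both sets (-0.37 and -0.39), with -0.39 ± 0.05 (SE, adjusted p = 0.00177). PTBP3, a paralog of the polypyrimidine tract binding protein, rose with 0.36 ± 0.07 (SE, adjusted p = 0.00855). TIA1 (-0.24) and RBM39 (-0.19) fell. Blocked by replicate number, their adjusted p values were 0.0808 and 0.104, and array set 2 alone gave 0.105 and 0.0752.

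Close partners of the SF3 and PRPF genes were among the calls. LSM2, a subunit of the ring on U6 RNA, fell, with -0.42 ± 0.06 (SE, n = 4 per group, adjusted p = 0.0028). It read 7.35, 8.21, 8.36 and 8.34 in CDK9 siRNA replicates 1 to 4, against 7.91, 8.60, 8.75 and 8.71 in control siRNA replicates 1 to 4. SNRPA1, a protein of the U2 particle, rose to 146% of the control level. It read 6.69, 7.84, 7.64 and 7.97 in CDK9 siRNA replicates 1 to 4, against 5.76, 7.08, 7.48 and 7.64 in control siRNA replicates 1 to 4. The 2 sets differed in size, with 0.93 and 0.42, and array set 2 alone did not pass (adjusted p = 0.0949). In array set 2 the lowest CDK9 siRNA signal and the highest control signal both read 7.64 at 2 decimals.

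CTNNBL1 and BCAS2 of the PRPF19 complex and the splicing factor SLU7 fell, with -0.25, -0.22 and -0.26. Blocked by replicate number, BCAS2 and SLU7 lost their calls (adjusted p = 0.0842 and 0.06), as BCAS2 did in array set 2 alone (0.0651). The minor spliceosome protein SNRNP25 fell (-0.29, adjusted p = 0.00833). UPF2, a nonsense-mediated decay factor (-0.30, adjusted p = 0.0041), and CASC3, an exon junction core protein (-0.23, adjusted p = 0.026), fell, and CASC3 missed the threshold when blocked by replicate number (adjusted p = 0.072).

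**Figure D5:**
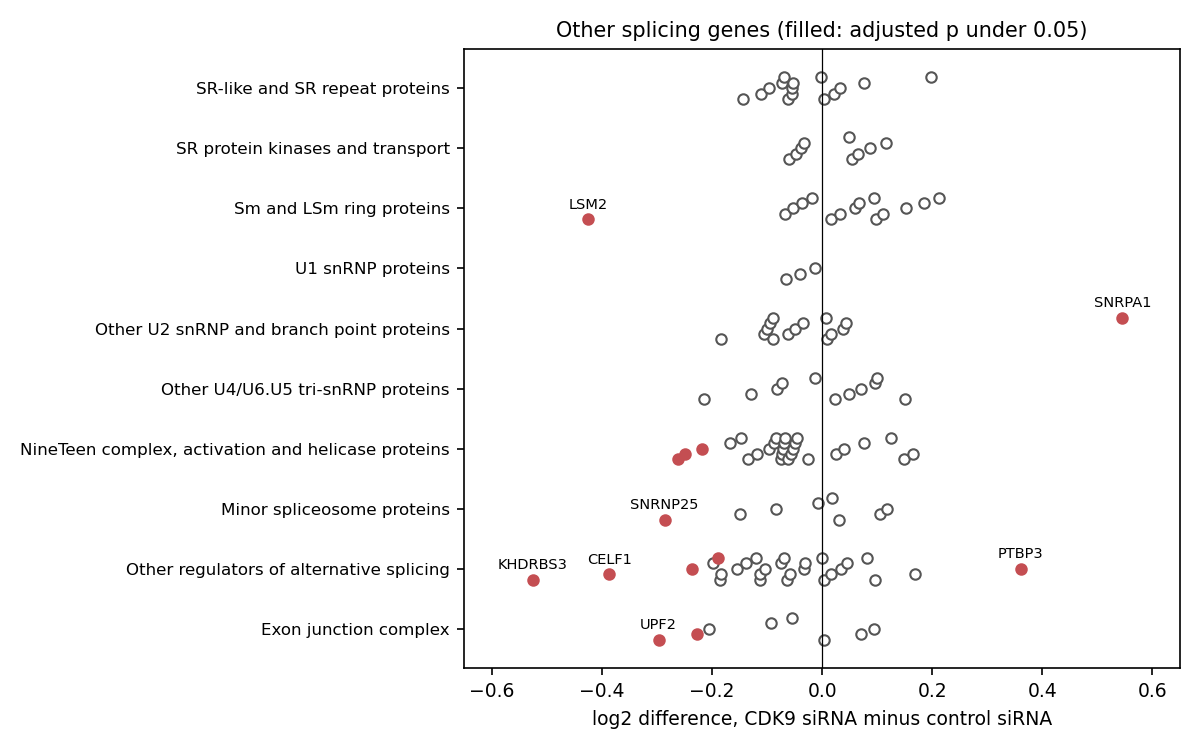
Log2 difference (CDK9 siRNA minus control siRNA, n = 4 per group) of 139 other splicing genes in 10 lists, with filled points for the 13 genes past an adjusted p under 0.05 and open points for the rest; vertical offsets within a list only separate points. SNRPA1 and PTBP3 lie to the right of 0 among the filled points, and the other 11 lie to the left.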

How the data were processed

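Log2 expression values of 33297 probe sets were deposited for 8 Affymetrix human gene arrays. The submitters' processing notes name Affymetrix Expression Console 1.1, RMA, the build hg19 and limma, in roles not given in the sources used here. The number of arrays limits the precision. Symbols came from the platform annotation, with 1 symbol for 19460 probe sets, and Entrez IDs of 19429 matched RefSeq, which changed 0 symbols. For each of 18417 genes the probe set of the highest mean was kept.

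The comparison of the groups used limma 3.58.1 under R 4.3.3 (linear model and empirical Bayes, two-sided, Benjamini-Hochberg over all genes, threshold 0.05), with the array set as a block. The fit was tested on simulated data, in which far fewer genes were changed than were called here. It recovered 38% of the simulated 1.2-fold changes and 90% of the 1.5-fold changes. Python 3.11.15, pandas 2.3.3, scipy 1.17.1 and matplotlib 3.10.9 made tables and plots. Genes were read in full where fixed by name (SRSF1, SRSF2, SRSF3, HNRNPA1, HNRNPK, SF3B1, U2AF1, U2AF2, PRPF8, PRPF19), where extreme in their family, or, in the other lists, where past the threshold. HNRNPL, HNRNPA0 and PRPF4 were added after their values were seen. Members and lists were chosen with earlier results of these data known. Alternatives concerned the block, arrays, scaling, dim genes, probe sets and prior. Deviations from group means correlated at 0.822, 0.537, 0.494 and 0.607 within same-numbered pairs 1 to 4, and the gap between the array sets enters these values. After removal of group means within array set 2 the same-numbered arrays gave -0.01 to 0.17 and differently numbered arrays -0.18 to 0.08. The numbers taken from the titles were therefore not shown to pair arrays beyond the array set, and values with them as a block are given beside the calls that they change. Protein sequences were not used here.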

Additional observations from a re-analysis of the deposited data

Results flagged for a closer look

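In the deposited values, replicate 1 lay apart from the other 3 arrays of its group, by Dixon's 95% limit for 4 samples, for 52 of the 55 genes in the CDK9 siRNA group and for 44 in the control siRNA group. In all of these it was the low array. Chance flags about 1 in 20 groups of 4 independent values. The same 2 arrays have the lower medians given above. The share of all genes flagged in this way was not counted, so the counts show nothing particular to the 55 genes.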

How the results depend on the processing

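No member rose under any of the 16 planned settings, and PRPF4 was the member called lower most often. Without a block, limma called 0 genes higher and 0 lower over all genes, 0 and 0 in the other splicing lists, and CDK9 kept its difference of -1.82 with an adjusted p of 1. With replicate number 1 to 4 as the replicate block, 813 genes were higher and 875 lower, and 6 genes of the other splicing lists were lower. The block changed no call among the 55 members or for CDK9. In array set 2 alone 1 member was lower (PRPF4), as it was with dim genes left out, while an intensity trend and robust prior gave 4 lower members. In the other lists 4 genes were higher after another quantile normalization, 7 were higher and 17 lower with dim genes left out, and 7 were higher and 19 lower with the trend and robust prior. With dim genes left out 1 member differed between the array sets (HNRNPL). With single arrays left out, the counts ran from 714 to 1753 higher and 806 to 1578 lower over all genes, 0 to 1 lower for the members and 1 to 3 higher and 6 to 12 lower in the other lists. The 1 lower member appeared without CDK9 siRNA replicate 1 or control siRNA replicate 1, either of which leaves array set 2 alone. The members' median stayed between -0.05 and -0.01 over all settings, within the SD of 0.06 between the 4 pairs of its value of -0.03. The pair medians behind that SD were -0.13 in pair 1 and 0.00, -0.03 and -0.02 in pairs 2 to 4. Pair 1 thus widens the limit, and staying within it shows little. With all probe sets tested, an alternative chosen after seeing the data, 0 members were called. With 4 arrays a group, the interval of 10 of the 55 members reached past a 1.2-fold change.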
